A study of Rattus norvegicus with 8 samples.

Results

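The CC chemokine system was followed in colon RNA from rats with chemically induced colitis through 9 genes, the 7 ligands Ccl2, Ccl3, Ccl4, Ccl5, Ccl7, Ccl11 and Ccl20 and the 2 receptors Ccr1 and Ccr2. They were found by their gene symbol in the scanner files, which gave 10 probes for the 9 genes, out of 30367 probes and 26214 gene names on the array. Of the 9 genes, 8 passed the filter on dim probes and were tested among 18184 genes, and Ccr2 did not. All rats were female, of the Wistar strain and 14 weeks old. The healthy group (6 rats) ate a sunflower oil diet for 8 weeks and received no dextran sulfate sodium (DSS), which damages the lining of the colon. The n-6 colitis group ate the same oil, the ALA colitis group a diet with α-linolenic acid (a plant n-3 fatty acid), and the fish oil colitis group a diet with fish oil (long-chain n-3 fatty acids), with 10 rats in each. These 3 groups had 5% DSS for 7 days. RNA of 6 rats was pooled, and each group was measured on 2 single-colour Agilent arrays. Whether both arrays of a group held the same pool is not stated in the labels. The healthy group had only 6 rats, so both of its arrays drew on the same rats. In the groups of 10, any separate pools of 6 would have shared rats. No group thus had 2 independent sets of rats, and the p-values here measure the spread between arrays, which may be technical.

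CC chemokines are small secreted proteins, named for a pair of adjacent cysteines, that draw leukocytes along concentration gradients through G protein-coupled receptors. Ccl2 and Ccl7 act mainly through Ccr2 and recruit monocytes, while Ccl3, Ccl4 and Ccl5 act on monocytes, macrophages and T cells, Ccl3 and Ccl5 in part through Ccr1. Ccl11 (eotaxin) recruits eosinophils through Ccr3, and Ccl20, made largely by gut epithelium, recruits Ccr6-bearing dendritic cells and lymphocytes. In the inflamed colon, monocyte recruitment through Ccr2 is the best known of these routes.

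A level below is the log2 signal of a probe minus the 75th percentile of that array, so 0 is a signal at that percentile, and a difference is the level of the first group minus that of the second. Levels are set side by side only for 1 gene, since probes differ in brightness. A probe was called well above background by the scanner software's own flag, and on each array 16402 to 21279 of the probes were. The 15 colonic epithelial markers all passed the filter, 14 of them on all 8 arrays, so the labelled tissue was borne out by its markers. The 8 arrays shared a slide and a scan. ALA and healthy samples filled its first row, and fish oil and n-6 samples the second. Each comparison between single groups thus coincided with the row, the column or both. The comparison of all colitis with healthy colon coincided with neither. Each group held its own place on the slide, so position and group cannot be told apart.

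The probes of 6 ligands lie on chromosome 10, in a pair of groups. In rn4, the probes of Ccl2 (chr10:70257919-70257978), Ccl7 (chr10:70268674-70268733) and Ccl11 (chr10:70283679-70283738) span 25.8 kb. Those of Ccl5 (chr10:71605854-71605913), Ccl3 (chr10:71744611-71744670) and Ccl4 (chr10:71760265-71760324) span 154 kb, beginning 1322 kb further on. Ccr1 (chr8:128694469-128694528) and Ccr2 (chr8:128893805-128893864) lie on chromosome 8, and the Ccl20 probes (chr9:82443347-82443406 and chr9:82443354-82443413) on chromosome 9. Each accession of the probes belongs to the same symbol in RefSeq. Although the ligands are related proteins, the longest run of bases shared by the probes of any pair of the 9 genes was 8 of 60. The probes of Ccr1 and Ccl4 are shown because, among the members that passed the filter, these were well above background on the fewest arrays, and their differences moved with the background correction.
Ccr1 probe (rn4, minus strand): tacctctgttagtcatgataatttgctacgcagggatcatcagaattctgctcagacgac
Ccl4 probe (rn4, plus strand): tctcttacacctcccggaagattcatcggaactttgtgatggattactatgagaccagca

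RefSeq promoter windows (GRCr8, 250 bases before to 50 after the start of the gene) were at hand for Ccl7, Ccl20, Ccr1 and Ccr2. They were searched on both strands for the NF-kB consensus, for the AP-1 motif TGANTCA and for TATAAA. The 120 bases before the start of Ccl7 and of Ccl20 are shown because Ccl7 had the largest difference of the members in the colitis comparison given next and Ccl20 a difference near 0. Capitals mark the motifs.
Ccl7 promoter (chr10:67513975-67514094, plus strand): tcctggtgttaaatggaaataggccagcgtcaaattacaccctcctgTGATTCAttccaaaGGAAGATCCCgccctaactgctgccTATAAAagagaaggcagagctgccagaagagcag
Ccl20 promoter (chr9:91837039-91837158, plus strand): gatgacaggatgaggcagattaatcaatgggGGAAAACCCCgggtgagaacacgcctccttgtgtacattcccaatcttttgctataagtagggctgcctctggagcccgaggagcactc
Ccl7 held an AP-1 match at -73 to -67, an NF-kB match at -59 to -50 and TATAAA at -34 to -29. Ccl20 held an NF-kB match at -89 to -80 and neither of the other motifs. The windows of Ccr1 and Ccr2 held none of these letters. Of all 33469 promoter windows of the same length, 7.51% held the NF-kB consensus, 7.33% the AP-1 motif and 14.2% TATAAA, so a match is a description of the sequence.

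The first comparison sets n-6 colitis against healthy colon on the same dietary oil, and so addresses what went with DSS. Of the 8 members tested, Ccl2, Ccl7, Ccl11 and Ccl3 were higher on both n-6 colitis arrays than on both healthy arrays, by 4.70-fold to 8.00-fold. Ccr1 was higher as well, but it passed the filter only through n-6 colitis, the one group with both arrays well above background, so its direction was partly fixed by that filter and counts are also given for the 7 other members. Ccl4, Ccl5 and Ccl20 differed by -0.20, -0.02 and -0.02 on the log2 scale. None passed limma's test at a Benjamini-Hochberg adjusted p under 0.05 (lowest adjusted p = 0.17, for Ccl3), which 0.0385% of all genes passed. At an unadjusted p under 0.05 the count was 4 of 7 without Ccr1 and 5 of 8 with it, where 14.3% of all genes reached it. The arrays did not overlap for 4 of 7 members (5 with Ccr1), where 45.5% of all genes did not. The median difference was 2.23 over the 7 members and 2.08 with Ccr1, and that of all genes 0.02, with an interval from the 10th to the 90th percentile of -0.98 to 0.89.

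**Figure D1:**
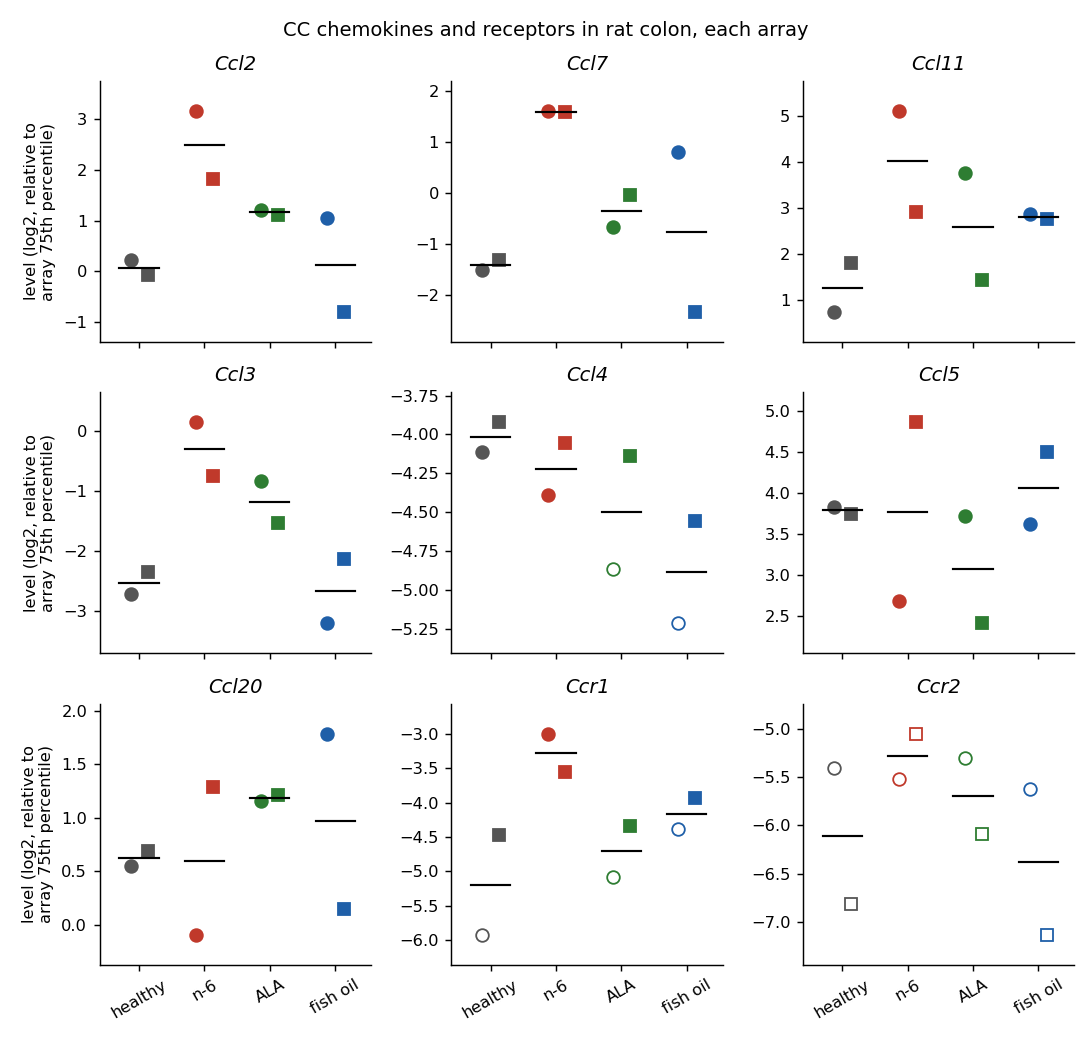
Level of each gene on each array (log2 relative to the array's 75th percentile), by group; circles are replicate 1 and squares replicate 2, bars are group means, and open symbols are arrays on which the probe was not well above background. Ccl2, Ccl7, Ccl3 and Ccr1 lay highest in n-6 colitis, with no overlap with healthy colon, and every symbol of Ccr2 is open.

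Ccl2 (monocyte chemoattractant protein 1) had levels of 0.23 and -0.08 in healthy colon and 3.15 and 1.82 in n-6 colitis. In ALA colitis it stood at 1.21 and 1.12, and in fish oil colitis at 1.05 and -0.79. Both n-6 arrays were the highest of the 8, and the fish oil arrays spread across the healthy ones. The order of the group means was n-6 (2.48), ALA (1.16), fish oil (0.13) and healthy (0.07), and the last pair lay within the spread of the arrays. Against healthy colon, n-6 colitis was 5.31-fold higher (95% interval 1.78 to 15.9; log2 difference 2.41, SE 0.67, limma adjusted p = 0.21).

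Ccl7 (monocyte chemoattractant protein 3) shared this pattern with less spread in n-6 colitis. It was at -1.51 and -1.32 in healthy colon, 1.60 and 1.57 in n-6 colitis, -0.67 and -0.04 in ALA colitis, and 0.79 and -2.32 in fish oil colitis. The fish oil arrays were 3.11 apart, on either side of the healthy arrays, while the n-6 arrays were 0.02 apart. The difference between n-6 colitis and healthy colon was 8.00-fold (95% interval 1.86 to 34.4; log2 3.0, SE 0.89, limma adjusted p = 0.22), the largest among the members. Across the 8 arrays the levels of Ccl2 and Ccl7 had a Pearson r of 0.91 (Spearman 0.88), the highest of any pair of members, as a description of arrays that share groups and slide.

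Ccl11 had levels of 0.74 and 1.80 in healthy colon, 5.10 and 2.92 in n-6 colitis, 3.75 and 1.42 in ALA colitis, and 2.86 and 2.75 in fish oil colitis. Within the n-6 and ALA groups, replicate 1 was the higher array by 2.18 and 2.33, a spread near the difference between groups. Against healthy colon, n-6 colitis was 6.70-fold higher (95% interval 1.44 to 31.1; log2 2.74, SE 0.94, limma adjusted p = 0.27). Its receptor Ccr3 was not well above background on any array, and neither were Epx and Prg3, granule proteins of eosinophils. Of 6 eosinophil markers, 2 passed the filter, Siglec5 and Prg2, with log2 differences of 2.15 and 0.56 between n-6 colitis and healthy colon (limma adjusted p = 0.51 and 0.80). Their mean level was -4.96 and -5.78 in healthy colon and -2.55 and -5.48 in n-6 colitis. It was -3.21 and -3.40 in ALA colitis and -4.50 and -5.84 in fish oil colitis. In the n-6, ALA and fish oil groups the replicate with the higher mean also had the higher Ccl11, and in healthy colon it had the lower. The relation between them was not tested.

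Ccl3 (macrophage inflammatory protein 1α) stood at -2.72 and -2.34 in healthy colon and 0.15 and -0.74 in n-6 colitis, with ALA colitis between them at -0.82 and -1.54. Fish oil colitis was at -3.20 and -2.13, around the healthy arrays. The n-6 and healthy arrays were separate by more than the range of either group. The difference was 4.70-fold (95% interval 2.06 to 10.7; log2 2.23, SE 0.50, limma adjusted p = 0.17), and Ccl3 ranked 331 of all genes tested by p.

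Ccr1, which binds Ccl3, Ccl5 and Ccl7, was dim. Its level was -5.92 and -4.47 in healthy colon, -2.99 and -3.55 in n-6 colitis, -5.08 and -4.34 in ALA colitis, and -4.39 and -3.93 in fish oil colitis. The probe was well above background on 5 of 8 arrays, among them both n-6 arrays and 1 array of each other group. The measured log2 difference between n-6 colitis and healthy colon was 1.92, which rests in part on a healthy array with no signal well above background, and no fold is given. With the normexp background correction, which models background as added to an exponential signal, the difference was 0.55.

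Ccr2, the main receptor of Ccl2 and Ccl7, was not well above background on any of the 8 arrays. Its measured levels were -5.41 and -6.81 in healthy colon, -5.52 and -5.05 in n-6 colitis, -5.30 and -6.09 in ALA colitis, and -5.62 and -7.13 in fish oil colitis. The groups overlapped, and values in this range carry no order.

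The other ligands did not follow this pattern. Ccl4 (macrophage inflammatory protein 1β), whose probe lies 15.6 kb from that of Ccl3, had levels of -4.11 and -3.92 in healthy colon, -4.39 and -4.06 in n-6 colitis, -4.86 and -4.14 in ALA colitis, and -5.21 and -4.56 in fish oil colitis. The healthy and n-6 arrays overlapped, and replicate 1 of the ALA and of the fish oil group was not well above background. Ccl4 thus passed the filter only through healthy colon and n-6 colitis. Its lower direction in ALA and fish oil colitis against these groups was therefore partly fixed by that filter. The difference between n-6 colitis and healthy colon was -0.20 (95% interval -1.12 to 0.71), an interval that lies below the Ccl3 difference of 2.23. Both differences come from separate probes and were not tested against each other. With the normexp correction the sign of the Ccl4 difference turned in this comparison (0.048) and in the other 6.

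Ccl5 (RANTES), a product of T cells and other cytotoxic lymphocytes among others, stood at 3.83 and 3.75 in healthy colon, 2.69 and 4.86 in n-6 colitis, 3.73 and 2.42 in ALA colitis, and 3.62 and 4.51 in fish oil colitis. The n-6 arrays lay on either side of the healthy ones, 2.18 apart, so the mean difference of -0.02 has a wide interval of -1.83 to 1.79. Ccl20 stood at 0.55 and 0.69 in healthy colon, -0.09 and 1.28 in n-6 colitis, 1.15 and 1.21 in ALA colitis, and 1.78 and 0.14 in fish oil colitis. Its n-6 and fish oil arrays spread around the healthy ones, and the interval of the n-6 difference ran from -1.52 to 1.47. The other Ccl20 probe, which overlaps the first, gave a difference of 0.03. The sign of such small differences for Ccl5 and Ccl20 turned with centring on the median in place of the 75th percentile, to 0.13 and 0.12.

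**Figure D2:**
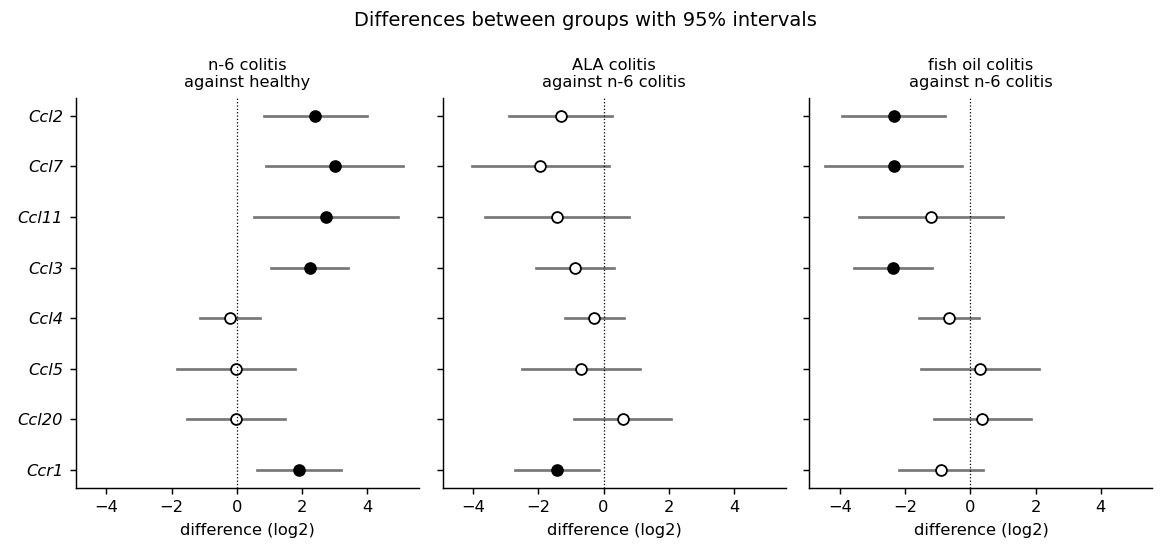
Log2 difference of each of the 8 tested members (points) with its 95% interval (lines) in 3 comparisons; filled points have an unadjusted limma p under 0.05. A total of 5 members are filled in n-6 colitis against healthy colon, 1 (Ccr1) in ALA against n-6 colitis and 3 (Ccl2, Ccl7, Ccl3) in fish oil against n-6 colitis, and none passed after adjustment.

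The n-6 arrays differed from each other for several members. Replicate 1 had the higher level of Ccl2 and Ccl11, and the lower level of Ccl5 and Ccl20. The mean level of the 15 epithelial markers was 2.91 on n-6 replicate 1 and 4.46 on replicate 2, against 4.15 to 4.94 on the other 6 arrays. Without n-6 replicate 1, 1 of all 8 members had an unadjusted p under 0.05 against healthy colon instead of 5, and without healthy replicate 1 there were 3. The directions of Ccl2, Ccl7, Ccl11 and Ccl3 in this comparison held under all alternatives run for each. That of Ccr1 held under the 18 run for it, but the filter had partly fixed it. The alternative with probes well above background on all 8 arrays left Ccr1 out. Over the alternatives the Ccl2 difference was 1.74 to 3.07, that of Ccl3 1.55 to 2.68, that of Ccl7 2.54 to 3.14, that of Ccl11 1.65 to 3.84 and that of Ccr1 0.55 to 2.65.

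Markers of several cell types were also higher in n-6 colitis. Of 12 monocyte and macrophage markers, 9 were higher and 0 lower in n-6 colitis at an unadjusted p under 0.05. Across all genes 14.3% reached that p in either direction. All 12 had a difference above 0. Their mean level was -0.93 and -0.60 on the healthy arrays and 0.54 and 0.45 on the n-6 arrays, with -0.12 to 0.29 on the other 4. Of 8 neutrophil markers, 5 were higher at that p, with mean levels of -2.72 and -3.53 in healthy colon and -1.35 and -1.54 in n-6 colitis, while Elane and Cxcr2 were not well above background on any array. The fibroblast list had 4 of 7 higher (means 2.50 and 2.24 against 3.56 and 2.95), and the T cell list 0 of 9 in either direction (means -1.18 and -1.03 against -1.12 and -1.20). A list of inflammatory cytokines and NF-kB feedback genes had 2 of 4 higher, with all 4 above 0 and a median difference of 0.83, while Il6 and Ptgs2 did not pass the filter. Of 15 epithelial markers, 2 were lower and 0 higher at an unadjusted p under 0.05. Only 2 of the 15 had a difference above 0, and the median was -0.55. No marker of these lists passed limma's adjusted threshold. The 6 red cell markers had mean levels of 3.98 and 3.29 on the n-6 arrays and -1.03 to 0.17 on the other 6, and 5 of the 6 passed the adjusted threshold against healthy colon. More cells of a type and more RNA per cell cannot be told apart in bulk tissue, and the part of these markers in the chemokine differences was not tested.

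**Figure D3:**
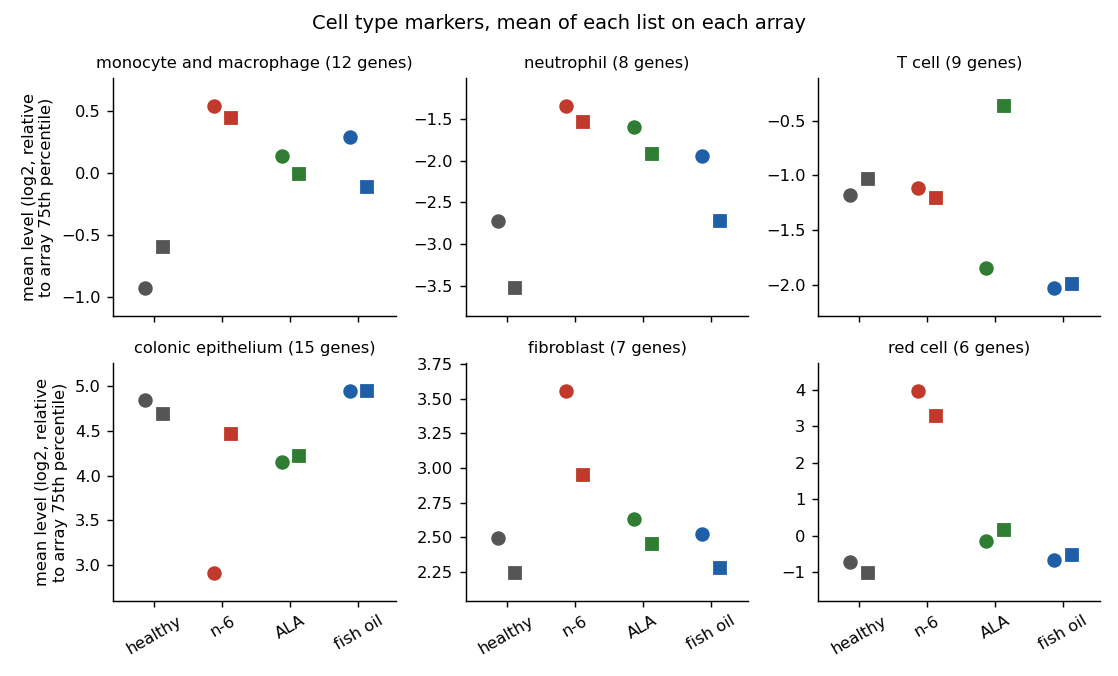
Mean level of each marker list on each array (log2 relative to the array's 75th percentile), by group; circles are replicate 1 and squares replicate 2. Macrophage means are higher on all 6 colitis arrays than on both healthy ones, red cell means are highest on both n-6 arrays, and the epithelial mean is lowest on n-6 replicate 1.

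The comparison of interest to the study was each n-3 diet against n-6 colitis. Fish oil colitis had lower Ccl3, Ccl2 and Ccl7 than n-6 colitis by a factor of 5.18, 5.11 and 5.10, and both fish oil arrays lay below both n-6 arrays for these and for Ccl11, Ccr1 and Ccl4. For Ccl3 the log2 difference was -2.37 (SE 0.50, 95% interval -3.56 to -1.18, limma adjusted p = 0.41), which ranked 94 of all genes. For Ccl2 it was -2.35 (SE 0.67, 95% interval -3.93 to -0.77, limma adjusted p = 0.41). Ccl7 had a difference of -2.35 with a wider interval of -4.46 to -0.25 (limma adjusted p = 0.41), since its fish oil arrays disagreed. Ccl11, Ccr1 and Ccl4 were lower by 1.21, 0.89 and 0.66 on the log2 scale, with intervals that included 0, and Ccl5 and Ccl20 were higher by 0.29 and 0.37. Fish oil replicate 1 was not well above background for Ccr1 or Ccl4.

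None of the 8 members passed limma's test at an adjusted p under 0.05 in fish oil against n-6 colitis, which 0.0385% of all genes passed. By contrast, 3 had an unadjusted p under 0.05, all lower in fish oil, where 12% of all genes reached it. Arrays did not overlap for 6 members, all lower (5 of 7 without Ccr1), where 46.7% of all genes did not overlap, so that separation of the arrays alone was common. Both counts include Ccl4, whose direction here was partly fixed by the filter. The median difference of the members was -1.05 (-1.21 without Ccr1) and that of all genes 0.01. With the normexp correction the Ccl3 difference was -1.18, that of Ccr1 0.15 and that of Ccl4 0.35. Without fish oil replicate 2, or without n-6 replicate 1, 1 member had an unadjusted p under 0.05. The 2 fish oil arrays differed most for Ccl7 and Ccl2, and replicate 1, the higher one, had 16402 probes well above background, the fewest of all arrays.

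Some cell type markers differed between the same arrays. Of 12 monocyte and macrophage markers, 2 were lower in fish oil than in n-6 colitis at an unadjusted p under 0.05 and 10 had a difference below 0. The counts lower at that p were 2 of 8 neutrophil, 2 of 9 T cell, 3 of 6 B cell and 5 of 7 fibroblast markers. Across all genes 12% reached that p in either direction, and no marker of these lists passed limma's adjusted threshold. Of 15 epithelial markers, 1 was higher and 14 had a difference above 0, with a median of 0.84. All 6 red cell markers were lower, 4 of them past limma's adjusted threshold, with a median of -4.56. In ALA against n-6 colitis the red cell median was -4.07, with 4 of 6 past that threshold. There, 0 of 12 macrophage, 0 of 8 neutrophil and 2 of 7 fibroblast markers reached the unadjusted p, as did 5.81% of all genes. The part of these markers in the chemokine differences was not tested.

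ALA colitis lay between n-6 colitis and healthy colon for Ccl2, Ccl7, Ccl3, Ccl11 and Ccr1 by group means. Against n-6 colitis, Ccl7, Ccl2 and Ccl3 were lower by 1.94, 1.32 and 0.89 on the log2 scale, with arrays that did not overlap and intervals that included 0. The measured difference of Ccr1 was -1.44, of which the filter fixed part, since ALA replicate 1 was not well above background. Ccl11 was lower by 1.43 with overlapping arrays, Ccl5 by 0.70 and Ccl4 by 0.28, and Ccl20 was higher by 0.58. By limma none passed the adjusted threshold, which 0.0275% of all genes passed, and at an unadjusted p under 0.05 there was 1 of 8, Ccr1 itself, and 0 of 7 without it, against 5.81% of all genes. Arrays did not overlap for 4 members, all lower (3 of 7 without Ccr1), against 30% of all genes. The median of the members was -1.10 (-0.89 without Ccr1), and that of all genes 0.07. With the normexp correction the Ccr1 difference was -0.35. The count of 1 became 0 when probes had to be well above background on all 8 arrays. It was also 0 with a robust limma prior that follows intensity, and it was 3 without n-6 replicate 2 or without either fish oil array. Both diet comparisons and the colitis comparison share the n-6 arrays, so their values are not independent.

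Setting both n-3 diets against each other, ALA colitis had 2.80-fold higher Ccl3 than fish oil colitis (95% interval 1.23 to 6.40; log2 1.49, SE 0.50, limma adjusted p = 0.48), with no overlap of the arrays. Ccl2 was higher by 1.03 on the log2 scale, also with no overlap but with an interval of -0.55 to 2.61. The other 6 members overlapped, with differences from -0.99 for Ccl5 to 0.41 for Ccl7. By limma none of 8 passed the adjusted threshold, which 0% of all genes passed, and 1 had an unadjusted p under 0.05, where 9.6% of all genes did. The arrays of 45.7% of all genes did not overlap. The Ccl3 difference was 0.50 with the normexp correction. Without ALA replicate 1 no member reached the unadjusted p, and without either fish oil array 2 did.

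Each n-3 diet group was also set against healthy colon, a contrast in which both the oil and DSS differ. In ALA colitis, Ccl3 was 2.54-fold higher (95% interval 1.11 to 5.81; log2 1.35, SE 0.50, limma adjusted p = 0.73). Ccl11, Ccl2 and Ccl7 were higher by 1.32, 1.09 and 1.06, Ccl20 by 0.56 and Ccr1 by 0.48, and Ccl4 and Ccl5 were lower by 0.48 and 0.72, all with intervals that included 0. Ccr1 was not well above background on replicate 1 of either group, nor Ccl4 on ALA replicate 1. By limma none passed the adjusted threshold (all genes 0%), and 1 had an unadjusted p under 0.05 (all genes 6.54%). Arrays did not overlap for 4 members that were higher and 2 that were lower, where 40.6% of all genes did not overlap. The lower ones include Ccl4, whose direction here was partly fixed by the filter. Without either healthy array, or without ALA replicate 1, no member had an unadjusted p under 0.05, and without ALA replicate 2 or either fish oil array 2 had.

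In fish oil colitis, Ccl11 and Ccr1 were higher than in healthy colon by 1.54 and 1.03 and Ccl4 was lower by 0.87, with no overlap of the arrays and intervals that included 0. Ccr1 was not well above background on replicate 1 of either group, nor Ccl4 on fish oil replicate 1. With 1 array left out, the Ccr1 difference ranged from 0.30 to 1.76. Ccl2 and Ccl3, which were among the highest differences in n-6 colitis, differed from healthy colon by 0.05 (95% interval -1.53 to 1.63) and -0.14 (-1.33 to 1.05). The Ccl2 interval includes the 1.09 of ALA colitis, so it does not show that fish oil colitis and healthy colon were alike. By limma none passed the adjusted threshold (all genes 0%) and none had an unadjusted p under 0.05 (all genes 3.89%). Arrays did not overlap for 3 members (2 of 7 without Ccr1), where 38.8% of all genes did not overlap. Both counts include Ccl4, whose direction here was partly fixed by the filter. The sign of the Ccl3 difference turned with the normexp correction (0.37), and that of Ccl4 likewise (0.40). Without healthy replicate 2 the count at the unadjusted p was 1, and without fish oil replicate 2 it was 2.

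Over all 6 colitis arrays against the healthy ones, Ccl11 was higher by 1.87 (SE 0.76, limma adjusted p = 0.61), Ccl3 by 1.15 (SE 0.41, limma adjusted p = 0.56), while the measured Ccr1 difference was 1.15. Ccl7 and Ccl2 were higher by 1.57 and 1.18 with intervals that included 0. By limma none passed the adjusted threshold (all genes 0%), and 3 had an unadjusted p under 0.05, or 2 of 7 without Ccr1 (all genes 8.02%). The ranges of colitis and healthy arrays overlapped for all 8 members, where 10.4% of all genes had no overlap. The count at an unadjusted p was 0 without healthy replicate 1, and 1 without healthy replicate 2, ALA replicate 1 or n-6 replicate 1.

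By position on chromosome 10, the Ccl2, Ccl7 and Ccl11 group also holds Ccl12, a further monocyte chemoattractant of rodents, and Ccl1, which did not pass the filter. Ccl12 had levels of -3.53 and -4.14 in healthy colon and -0.23 and -2.21 in n-6 colitis, a log2 difference of 2.61 (SE 0.64, limma adjusted p = 0.18). In fish oil colitis it was at -3.10 and -3.18, lower than in n-6 colitis by 1.92 (SE 0.64, adjusted p = 0.41). All 4 genes of this group that were tested were thus higher on both n-6 arrays than on both healthy arrays. In this comparison the arrays of 45.5% of all genes did not overlap, in either direction. In the group of Ccl5, Ccl9, Ccl6, Ccl3 and Ccl4, the differences were -0.02, 1.04, 1.39, 2.23 and -0.20, and the unadjusted p was under 0.05 for Ccl3 alone. Ccl9, Ccl6 and Ccl3 were also higher on both n-6 arrays than on both healthy arrays.

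**Figure D4:**
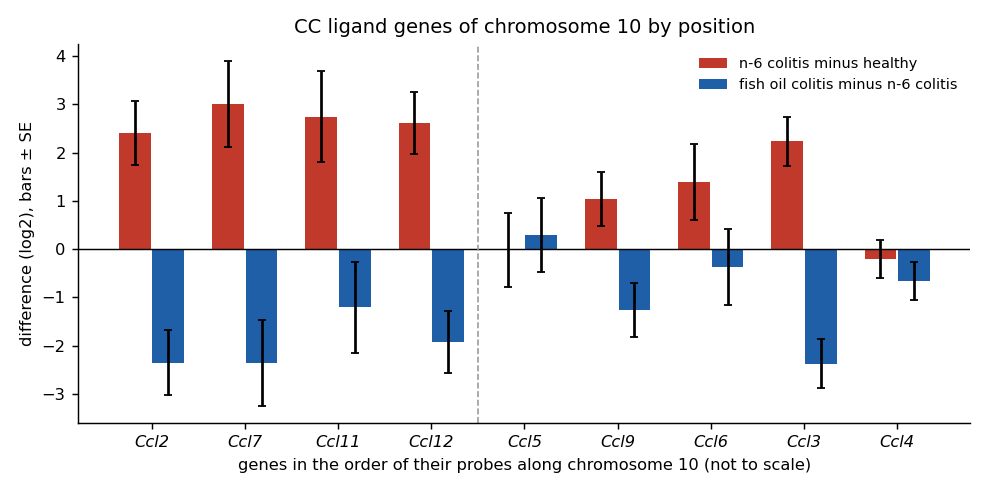
Log2 difference (bars, with SE) of the tested CC ligand genes of chromosome 10 in the order of their probes, for n-6 colitis minus healthy (red) and fish oil minus n-6 colitis (blue); the dashed line parts the groups of genes. The 4 genes left of the line have red bars between 2.41 and 3.0 and blue bars below 0, while on the right the red bars run from -0.20 to 2.23.

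The rest of the CC family was taken from lists of 17 other ligands, 7 other receptors and 7 atypical receptors and relatives, of which 13, 7 and 3 were on the array and 11, 3 and 3 passed the filter. None of these 17 passed limma's adjusted threshold in any comparison. In n-6 colitis against healthy colon, 3 of 11 ligands (Ccl12, Ccl27 and Ccl21) and 1 of 3 receptors (Ccr6) were higher at an unadjusted p under 0.05, which 14.3% of all genes reached, and none was lower. Fish oil colitis had 3 of 11 ligands (Ccl12, Ccl22 and Ccl17), 1 of 3 receptors (Ccr6) and 1 of 3 atypical receptors (Ccbp2) lower than n-6 colitis at that p, which 12% of all genes reached there, and none higher. Of these arrays, Ccbp2 was well above background on n-6 replicate 1 only. Ccl27, a ligand of Ccr10, stood at -1.63 and -1.89 in healthy colon, -0.19 and -0.80 in n-6 colitis, -1.68 and -1.97 in ALA colitis, and -0.82 and -1.42 in fish oil colitis. Both n-6 arrays were above all others, by a narrow margin over fish oil replicate 1. It was higher in n-6 colitis than in healthy colon by 1.26 (SE 0.37, limma adjusted p = 0.22), and lower in ALA than in n-6 colitis by 1.33 (limma adjusted p = 0.84).

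Ccr6 is the receptor of Ccl20. Its levels were -0.61 and -0.77 in healthy colon, 2.07 and 0.83 in n-6 colitis, 1.07 and 3.01 in ALA colitis, and 0.07 and -0.79 in fish oil colitis. Both n-6 and both ALA arrays were above the healthy ones, by 2.14 and 2.73 on average (adjusted p = 0.26 and 0.68), and the Ccl20 differences were -0.02 and 0.56, with intervals of -1.52 to 1.47 and -0.93 to 2.05. Receptor and ligand were not tested against each other. Ccl19 and Ccl21, the lymphoid ligands of Ccr7, were higher in ALA colitis than in healthy colon by 5.73 (SE 1.95, adjusted p = 0.73) and 2.07 (SE 0.64, adjusted p = 0.73), and Ccr7 itself did not pass the filter. In n-6 colitis they were higher than in healthy colon by 4.37 and 1.88 (limma adjusted p = 0.37 and 0.27). ALA colitis differed from n-6 colitis by 1.36 (SE 1.95) for Ccl19 and 0.20 (SE 0.64) for Ccl21. Of the 11 other ligands, 6 were higher and 0 lower in ALA colitis than in healthy colon at an unadjusted p under 0.05. Across all genes 6.54% reached that p in either direction. The count of ligands higher was 3 of 11 in n-6 colitis (all genes in either direction 14.3%) and 0 of 11 in fish oil colitis (3.89%), with 0 lower in each. These contrasts share the healthy arrays, and the counts were not tested against each other. Ccl22 and Ccl17, ligands of Ccr4, were higher in ALA than in fish oil colitis by 2.52 and 3.6 (adjusted p = 0.48 for both), and Ccr4 was not well above background on any array. The 6 B cell markers had mean levels of -1.27 and 0.55 on the ALA arrays, 0.40 and -3.41 on the n-6 arrays, -3.79 and -3.68 on the healthy arrays and -3.32 and -5.44 on the fish oil arrays. The part of B cell RNA in the values of Ccr6, Ccl19 and Ccl21 was not tested.

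**Figure D5:**
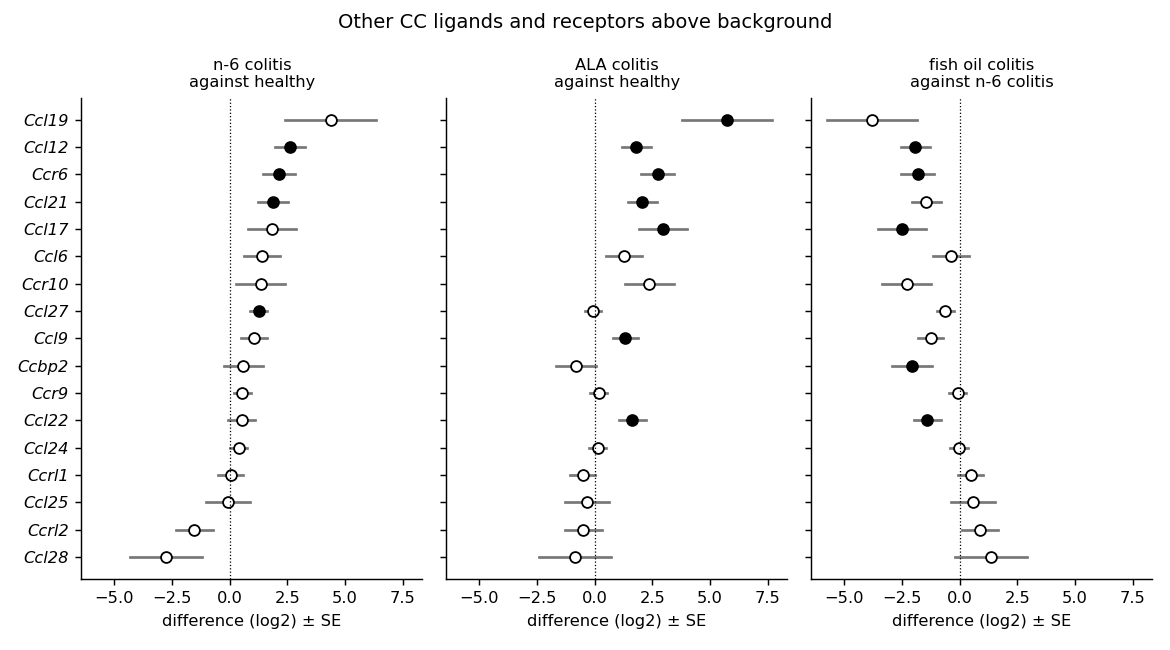
Log2 difference (points) with its SE (lines) of the 17 other CC ligands, receptors and atypical receptors that passed the filter, in 3 comparisons, ordered by the first; filled points have an unadjusted limma p under 0.05. Ccl27 is filled in n-6 colitis against healthy colon and near 0 in ALA colitis against healthy colon.

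The genes whose levels over the 8 arrays were most like those of each member were sought among those well above background on all 8 arrays. For Ccl2 they were Arid5a (Pearson r = 0.98), Vcan (0.97) and Fgf2 (0.97), and for Ccl7 they were Pde4b, Tlr2 and Psmd10 (0.97 each). Ccl11 was most like Cd63 (0.97), Ccl3 like Wdr70 (0.98), Ccl5 like Sdf2 (0.99), Ccl4 like Erich1 (0.96), Ccl20 like Comp (0.92) and Ccr1 like C1s (0.92). They are the extremes of 9796 or 9797 genes compared over 8 arrays of 4 groups, and describe these arrays only. Between members, Ccl2 and Ccl3 had r = 0.74, Ccl3 and Ccl11 0.70, Ccl11 and Ccr1 0.68, and Ccl2 and Ccl11 0.67. The lowest were Ccl2 with Ccl5 and Ccl4 with Ccl11, at -0.43 each.

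Ccl2 and Ccl3 were each printed as 10 spots on the array and the others as 2, which bears on how precisely an array measured them. The SD between spots of Ccl2 was 0.02 to 0.07 on the 8 arrays, and that of Ccl3 0.04 to 0.37, while the n-6 arrays of Ccl2 were 1.33 apart and its fish oil arrays 1.84. For the dim probes of Ccr1 and Ccl4 the SD between spots reached 1.14 and 0.70. In the n-6 and fish oil groups the spread of Ccl2 between arrays was thus larger than that between its spots, and in the ALA group, at 0.09, it was near it.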

How the data were processed

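Colon RNA was measured on 8 single-colour Agilent arrays, 2 in each of 4 groups. The intensity values are the processed signals that Agilent Feature Extraction 11.5.1.1 wrote, per the file headers, after its background subtraction. The deposited value table holds log2 values of the same arrays. Set against the scanner values it correlated at 0.982 to 0.989 over 18178 genes, with column medians of -3.18 to -2.89 and 75th percentiles within 0.01 of 0, so it was centred on that percentile, though how its genes were summarised stays unknown.

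Signals were taken as log2, averaged over the spots of a probe without outlier spots, and set to the 75th percentile of each array. Where a symbol had several probes, the brightest on average was used, and a probe entered the fit if some group had it flagged well above background on both arrays. Group means were fitted over all 8 arrays with limma 3.58.1 (R 4.3.3) and 7 comparisons were tested, with Benjamini-Hochberg adjustment over 18184 genes at 0.05. The number of arrays limits the precision. The fit was tested on simulated data. The members, the marker and family lists and the tests were chosen with earlier results of these data known. The naming rule was all 9 members, up to 4 other family genes with the lowest p in a comparison, and the genes most correlated with a member; Ccl1, Ccl6, Ccl9, Ccr3, Ccr4 and Ccr7 were named outside it, as were Ccl21 in n-6 colitis against healthy colon and Ccl17 and Ccbp2 in fish oil against n-6 colitis. The main fit did not pair arrays by replicate number. Deviations of same-numbered arrays correlated at 0.47 between healthy and ALA colitis, and at -0.17 to 0.15 between the other groups. The cause of the higher value was not tested. Motifs were searched in RefSeq promoter sequences (GRCr8). Up to 19 alternatives were run for each result, covering background, scaling, filter, probe summary, fit and each array left out. Of the family lists, 1 gene was left out and is not reported here.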

Additional observations from a re-analysis of the deposited data

How the results depend on the processing

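The count of members past the adjusted threshold was 0 in all 7 comparisons under every alternative run. The 56 differences of single members kept their direction and side of that threshold in 1004 of 1042 recomputed values and turned sign in 38, none of them called. The count of members with an unadjusted p under 0.05, Ccr1 included, moved more. In ALA against n-6 colitis it was 1, and became 2 with normexp, 3 with median centring, 0 when probes had to be well above background on all 8 arrays, 2 with only the groups compared, 2 with the replicate block and 0 with an intensity trend and robust prior. In ALA colitis against healthy colon it was 1, and 3 with only the groups compared. In ALA against fish oil colitis it was 1, and 0 with normexp. In all colitis against healthy colon it was 3, and 1 with quantile normalization and 1 with the deposited value table. In fish oil colitis against healthy colon it was 0, and 1 both with only the groups compared and with the replicate block. In the labels the arrays of a block share only a number, and the block left every count at the adjusted threshold at 0 for the members. Leaving out each array in turn gave counts of 1 to 5 in n-6 colitis against healthy colon, 1 to 3 for either n-3 diet against n-6 colitis, 0 to 2 in ALA against fish oil, 0 to 2 in ALA against healthy, 0 to 2 in fish oil against healthy and 0 to 4 in all colitis against healthy. A lone array left in a group was taken to vary like the other groups.

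Sign turned with normexp for Ccl4 in all 7 comparisons: 0.048 for n-6, 0.064 for ALA, 0.40 for fish oil and 0.17 for all colitis against healthy, 0.016 for ALA and 0.35 for fish oil against n-6, and -0.34 for ALA against fish oil. It also turned for Ccl3 in fish oil against healthy (0.37) and for Ccr1 in fish oil against n-6 (0.15), where normexp moved the median of all genes by 0.24 and 0.23; the cause was not tested. Quantile normalization gave -0.19 for Ccl4 in ALA against fish oil. Median centring, which moved the median of all genes by 0.14 in n-6 against healthy, gave 0.12 for Ccl20 and 0.13 for Ccl5 there, and the mean of the Ccl20 probes gave 0.0038. The deposited value table gave -0.015 for Ccl2 in fish oil against healthy. Differences that turned when 1 array was left out ranged as follows. For Ccl2 in fish oil against healthy the range was -0.87 to 0.98, for Ccl3 -0.67 to 0.39, for Ccl7 -0.91 to 2.21, for Ccl20 -0.48 to 1.16 and for Ccl5 -0.17 to 0.72. In n-6 against healthy it was -0.71 to 0.66 for Ccl20 and -1.10 to 1.07 for Ccl5. In ALA against fish oil it was -1.38 to 0.94 for Ccl11, -1.15 to 1.97 for Ccl7 and -0.60 to 1.04 for Ccl20. In ALA against n-6 it was -0.10 to 1.27 for Ccl20, -0.64 to 0.086 for Ccl4 and -1.79 to 0.39 for Ccl5. In fish oil against n-6 it was -0.45 to 1.19 for Ccl20 and -0.80 to 1.38 for Ccl5. In all colitis against healthy it was -0.52 to 0.21 for Ccl5, and in ALA against healthy -0.24 to 1.21 for Ccr1. Over all genes the count past the adjusted threshold in n-6 against healthy was 7 and ranged from 0 to 69, while against n-6 colitis the 7 genes of fish oil became 0 to 8 and the 5 genes of ALA 0 to 6. Signal over background limited Ccr2 on every array, Ccr1 on 3 and Ccl4 on 2.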
